A study of Homo sapiens with 6 samples.

Results

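The 10 genes FOS, FOSB, FOSL1, FOSL2, JUN, JUNB, JUND, EGR1, IER3 and MYC were taken by symbol from a table of 57820 genes. They encode the FOS and JUN families of the AP-1 transcription factor, the zinc finger factor EGR1, the oncogenic factor MYC and IER3, a stress-inducible survival protein that does not bind DNA. Their RNA was measured in M14, a human melanoma line carrying an inducible shRNA against STAG2, a subunit of the cohesin ring that holds DNA loops. WT libraries came from cells kept without doxycycline and KD libraries from cells given it for 5 days, with 3 libraries in each group and the shRNA construct in all 6. The groups rest on 1 line, so a shared property of these cells is not averaged out. Cells given doxycycline without the shRNA were not analysed here, so the drug and the knockdown cannot be told apart. The comparison asks how far the RNA of these factors changed when STAG2 was depleted.

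AP-1 is a dimer of a JUN protein with a FOS, JUN or related leucine zipper protein, and it binds short sites in promoters and enhancers. FOS, JUN and EGR1 are immediate early genes, which growth factors and stress switch on within minutes, without new protein synthesis. The signal runs through the ERK, JNK and p38 kinases acting on factors such as SRF, ELK1, CREB and JUN itself. MYC responds to many of the same signals. In melanoma the ERK pathway is often constitutively active, and FOSL1 is a stable FOS relative that such signalling keeps high.

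STAG2 itself, the targeted gene, was lower in every KD library, with 66.5, 34.8 and 28.8 CPM (counts scaled to a library size of 1000000) across the WT libraries, given here and later in the order of replicates 1, 2 and 3, and 16.0, 7.31 and 6.69 CPM across the KD ones. Its log2 fold change was -2.12 ± 0.43 (SE, n = 3 and 3; adjusted p = 0.0342, edgeR), a call lost without WT replicate 2 or 3 or KD replicate 2 or 3 (adjusted p up to 0.168). Library totals ranged from 24895998 to 35181733 expected counts, and 3 counts, taken as the floor, corresponded to 0.087 to 0.112 CPM. WT replicate 1 stood apart, with 5.07% of its counts in mitochondrial genes against 2.12% to 2.94% elsewhere, and 20646 genes above 0 against 16028 to 17995. It also had the highest summed level of 10 melanocyte markers, 6648 CPM against 1465 to 2857 CPM in the other 5 libraries. Each result on the 10 genes was therefore also computed without it and without both libraries numbered 1. Of these melanocyte markers, SOX10, PMEL and MITF were present in all 6 libraries. The median log2 fold change of the 10 markers was -0.84, with 2 above 0.

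Of the 10 genes, all passed the filter on low counts, and EGR1 was the only one called. It rose in KD, and 0 of the 10 fell by edgeR, by DESeq2 or by limma-voom (0 had an unadjusted p under 0.05 on that side). Among all 15605 genes tested, 1.75% were called higher and 0.839% lower at an adjusted p under 0.05. When libraries sharing a replicate number were treated as pairs, those shares became 5.1% and 4.42%, and the call for the 10 genes was again EGR1 alone. The median log2 fold change of the 10 was 0.28, beside -0.03 for all tested genes, with 7 above 0 and 3 below. Every KD library lay above every WT library for 3 of the 10 (EGR1, FOSB and FOSL1) and below for 0, where 11.8% and 10.5% of all tested genes were so ordered.

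The promoters that follow are those of EGR1, the gene that was called, of FOSB, which had the next largest difference, and of FOS, its classic relative, whose groups overlap. They are RefSeq sequences (GRCh38.p14), 250 bases before the annotated start and 50 after it, and such sequences matched 7 of the 10 genes (all but FOSL1, IER3 and MYC). Capitals mark the CArG box, where SRF binds, the TGACG core of the cAMP response element, which reads CGTCA on the other strand, and the TATAAA box. All motifs were searched on both strands, and TGACG is contained in the full element TGACGTCA.
EGR1 promoter, chr5:138465229-138465528, + strand: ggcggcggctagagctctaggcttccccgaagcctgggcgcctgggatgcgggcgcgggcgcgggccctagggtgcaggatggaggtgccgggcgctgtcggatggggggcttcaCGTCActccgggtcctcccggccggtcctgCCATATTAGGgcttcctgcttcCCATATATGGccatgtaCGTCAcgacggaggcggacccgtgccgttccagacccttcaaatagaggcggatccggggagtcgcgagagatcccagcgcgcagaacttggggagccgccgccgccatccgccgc
FOSB promoter, chr19:45467746-45468045, + strand: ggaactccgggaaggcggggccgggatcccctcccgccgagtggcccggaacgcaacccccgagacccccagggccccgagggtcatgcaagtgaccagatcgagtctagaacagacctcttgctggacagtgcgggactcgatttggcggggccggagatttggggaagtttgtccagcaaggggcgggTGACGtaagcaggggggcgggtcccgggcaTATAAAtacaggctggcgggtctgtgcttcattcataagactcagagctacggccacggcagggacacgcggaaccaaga
FOS promoter, chr14:75278578-75278877, + strand: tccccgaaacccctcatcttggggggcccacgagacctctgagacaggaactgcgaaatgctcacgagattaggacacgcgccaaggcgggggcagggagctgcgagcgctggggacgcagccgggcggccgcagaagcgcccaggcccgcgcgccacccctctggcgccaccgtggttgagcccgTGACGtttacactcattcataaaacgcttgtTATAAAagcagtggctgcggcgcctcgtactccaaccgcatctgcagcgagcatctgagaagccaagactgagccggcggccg

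EGR1 had 2 CArG boxes, CCATATTAGG with its first base 105 bases before the start and CCATATATGG with its first base 83 bases before it. They lay between 2 CGTCA matches, 135 and 66 bases before the start. A CArG box was found in 1.29% of 27305 promoters of this length, and 2 or more in 9 of them (0.033%). None of the other 6 promoters matched held a CArG box in this window. Sequence farther from the start was not searched, so whether FOS or the others hold a CArG box there was not tested. TGACG was in all 7, and also in 25.01% of all promoters. TATAAA was in FOS, FOSB and JUNB, and in 11.95% of all promoters. The full AP-1 site TGACTCA was in FOSL2 alone (4.92% of all promoters), the full element TGACGTCA in JUND alone (1.98%), and the EGR1 site GCGTGGGCG in 0 of the 7 (0.784%). A match is a string of letters, and binding at these windows was not measured here.

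**Figure D1:**
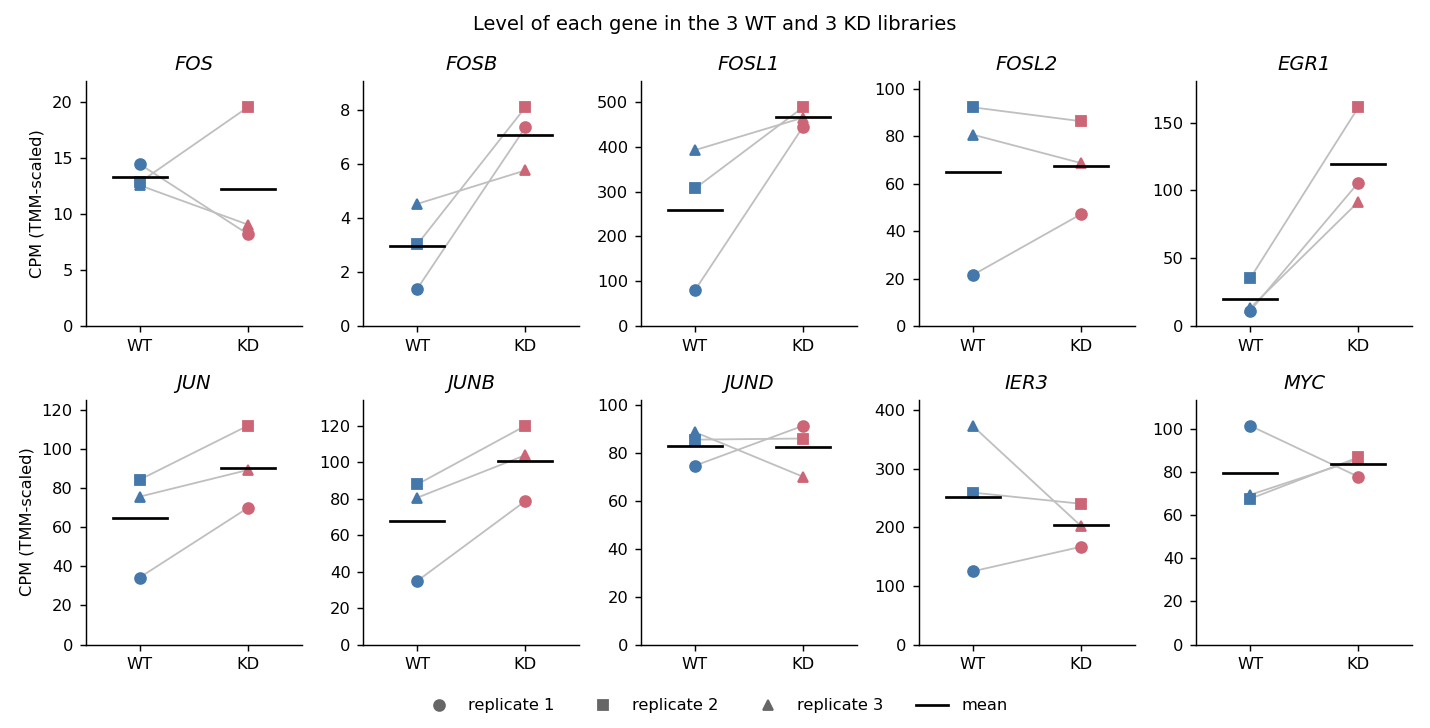
Level of each of the 10 genes in CPM (linear axis from 0, its own scale per gene) in the WT and KD libraries, with grey lines joining libraries of the same replicate number and black bars at the group means. EGR1 lies between 11.3 and 35.2 CPM in WT and between 91.6 and 161 CPM in KD, while WT replicate 1 is the lowest library for 7 of the 10 genes.

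EGR1, a zinc finger factor that growth factors and stress induce, stood at 11.3, 35.2 and 13.3 CPM in WT and at 106, 161 and 91.6 CPM in KD. The lowest KD library exceeded the highest WT library, and replicate 2 was the highest of its group in both. These values rest on 302 to 1215 counts in WT and 2994 to 4767 counts in KD. The mean rose 6.0-fold, from 19.9 ± 13.3 to 119.6 ± 36.8 CPM (SD, n = 3 each). The fitted log2 fold change was 2.58 ± 0.44 (SE; 95% interval 1.61 to 3.56), with an adjusted p of 0.0150 by edgeR. KD exceeded WT by 3.18, 2.18 and 2.74 on the scale of log2(CPM + 0.5) in replicates 1, 2 and 3. The call was lost when 1 of 2 libraries was left out: adjusted p = 0.0732 without KD replicate 2 and 0.0922 without WT replicate 3. The range over all alternatives was 2.6e-22 (no filter on low counts, where the SE was 0.25) to 0.0922. Without both libraries numbered 1 the adjusted p was 0.0304 by edgeR, with a log2 fold change of 2.39. In a bulk library, more RNA per cell and more cells with the RNA cannot be told apart. EGR1 (ENSG00000120738) is annotated at 137801168 to 137804992 of chromosome 5 (GRCh37, plus strand). It was 174th of the tested genes by p, and 83rd of the 273 called higher by fold change.

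FOSB, the FOS relative that builds up after repeated stimulation, stood at 1.38, 3.02 and 4.51 CPM in WT and 7.34, 8.09 and 5.75 CPM in KD. All KD libraries were above all WT libraries, at a low level throughout. Its log2 fold change of 1.25 ± 0.51 (SE; 95% interval 0.11 to 2.38) had an unadjusted p of 0.0346 and an adjusted p of 0.287 by edgeR, so the call was not made. FOSB overlaps ERCC1 on the opposite strand, a DNA repair gene with a mean of 6456 counts in WT and 7590 in KD. The study names a directional library kit, which keeps the strand of the RNA. The strand setting of the counting is not given in the sources used here, so reads of the pair may not be separable.

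FOSL1 (FRA-1), the FOS relative tied to sustained ERK signalling and to invasive states, stood at 79.8, 307 and 393 CPM in WT and 445, 489 and 466 CPM in KD. The KD libraries were close together and above all WT libraries, while WT replicate 1 was far below the other WT libraries. The log2 fold change of 0.84 ± 0.45 (SE; 95% interval -0.17 to 1.86) did not pass the test (adjusted p = 0.450, edgeR). By replicate number the difference on that scale was 2.47, 0.67 and 0.24. Without WT replicate 1 the log2 fold change was 0.41 (adjusted p = 0.321). The gene was called in 1 alternative, with no filter on low counts (adjusted p = 0.0203), within a range of 0.0203 to 0.663 over all alternatives. Its SE was 0.25 in that fit, against 0.45 in the main fit. JUN, JUNB, JUND and MYC each had an SE of 0.23 there, against 0.33, 0.33, 0.19 and 0.21 in the main fit. The unfiltered fit thus gave genes of unlike spread nearly the same SE.

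FOS, the founding member of the family and the usual partner of JUN after a stimulus, stood at 14.5, 12.8 and 12.6 CPM in WT and 8.22, 19.5 and 9.06 CPM in KD. KD replicate 2 was the highest of all 6 and the other KD libraries were the lowest, so the groups overlap. The log2 fold change was -0.12 ± 0.37 (SE; 95% interval -0.94 to 0.71). FOSL2 (FRA-2) stood at 21.4, 92.1 and 80.6 CPM in WT and 47.0, 86.2 and 68.6 CPM in KD. Here both libraries numbered 1 were the lowest of their groups, and the log2 fold change was 0.06 ± 0.46 (SE; 95% interval -0.96 to 1.08).

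JUN, the factor that JNK activates, stood at 34.2, 84.2 and 75.6 CPM in WT and 69.8, 112 and 89.2 CPM in KD. JUNB, a JUN relative that often restrains JUN, ran beside it at 34.8, 87.8 and 80.5 CPM in WT and 78.7, 120 and 104 CPM in KD. For both genes the KD library was above the WT library of its number in 3 of 3 pairs, yet the groups overlapped because KD replicate 1 was under the higher WT libraries. The log2 fold change was 0.48 ± 0.33 for JUN and 0.57 ± 0.33 for JUNB (SE; adjusted p = 0.586 and 0.482, edgeR). With the pairs taken into account these became 0.56 and 0.66, with adjusted p of 0.0914 and 0.0540. Without WT replicate 1 they were 0.17 and 0.26 instead, with adjusted p of 0.809 and 0.647. Over all alternatives the adjusted p ran from 0.0914 to 0.875 for JUN and from 0.0540 to 0.772 for JUNB. JUNB overlaps HOOK2 on the opposite strand, with a mean of 817 counts in WT and 904 in KD.

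JUND, the JUN relative that resting cells also express, stood at 74.7, 85.6 and 88.7 CPM in WT and 91.4, 86.0 and 70.1 CPM in KD. The groups spanned nearly the same range, and the log2 fold change was -0.01 ± 0.19 (SE; 95% interval -0.43 to 0.41), whose sign turned when libraries were scaled by total counts alone. JUND and MYC had the narrowest intervals of the 10, and the interval for MYC ran from -0.40 to 0.54.

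IER3, an early stress protein that modulates ERK signalling and survival, stood at 125, 260 and 374 CPM in WT and 167, 240.5 and 203 CPM in KD. The WT libraries held both the lowest and the highest value, and the log2 fold change was -0.31 ± 0.35 (SE). IER3 overlaps HCG20 on the opposite strand, with a mean of 77.7 counts in WT and 24.9 in KD. MYC stood at 101, 67.5 and 69.3 CPM in WT and 77.7, 86.7 and 85.8 CPM in KD. WT replicate 1 was the highest for MYC and the lowest for IER3, and the MYC log2 fold change was 0.07 ± 0.21 (SE). None of FOS, FOSL2, JUND, IER3 and MYC had an adjusted p below 0.783 by edgeR.

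WT replicate 1 was the lowest of the 6 libraries for 7 of the 10 genes, where 21.7% of all tested genes were lowest in it. KD replicate 2 was the highest for 6 of the 10, where 14.2% of all tested genes were. Without both libraries numbered 1, KD lay above WT with no overlap for 6 of the 10. In the same 2 against 2 libraries 26.3% of all tested genes did. IER3 went the other way there, at 260 and 374 CPM in WT and 240.5 and 203 CPM in KD. Its log2 fold change was then -0.51 (95% interval -0.98 to -0.03, adjusted p = 0.221, edgeR). The share of all tested genes with KD below WT in these libraries was not computed. The part of WT replicate 1's mitochondrial share and melanocyte marker level in these differences was not tested. With 3 libraries against 3, an exact two-sided permutation test of a single gene cannot go below 0.1, the value that EGR1, FOSB and FOSL1 each had.

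**Figure D2:**
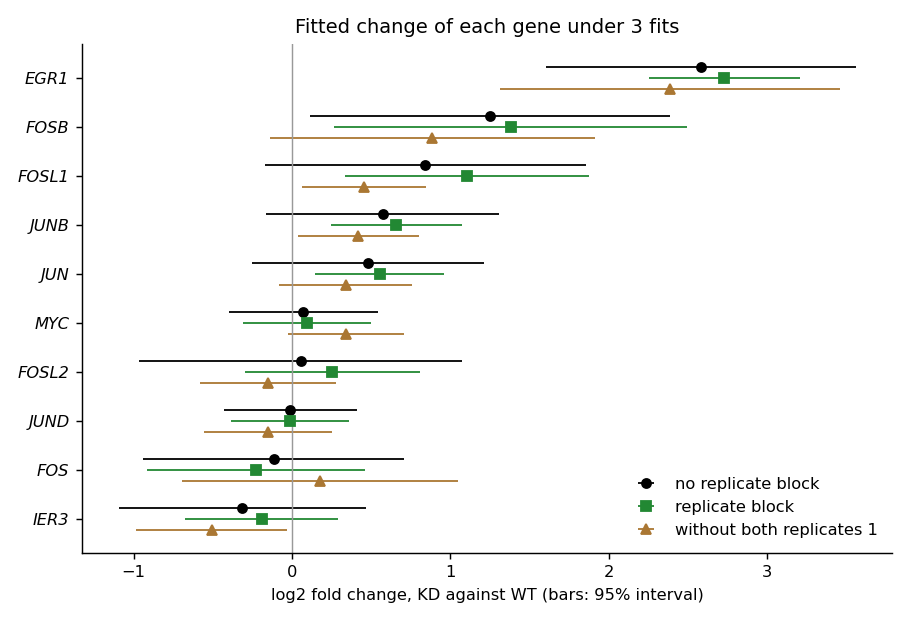
Log2 fold change of KD against WT for each of the 10 genes, with 95% intervals, from the fit without pairs (black circles), with the replicate number as a block (green squares) and without both libraries numbered 1 (brown triangles). The EGR1 interval lies above 0 in all 3 fits, whereas FOSL1 moves from 0.84 to 1.11 with the block and to 0.45 without those libraries.

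Scaled for length, in counts per kilobase of exon with every library brought to the same sum of 1000000 (as TPM is), the 10 genes could be compared with each other. IER3 was the highest in WT (608 ± 270, SD, n = 3) and FOSL1 the highest in KD (821 ± 24.4, SD, n = 3). FOSL1 and IER3 differed by less than the spread of IER3 in WT, where FOSL1 was at 447 ± 266. FOSB was the lowest in both groups, at 1.73 ± 0.83 and 4.22 ± 0.67. EGR1 moved from rank 8 to rank 5, passing FOSL2, MYC and JUN, with a level of 21.3 ± 15.2 in WT and 126 ± 36.5 in KD. In KD, EGR1 and JUND (142 ± 19.2) were closer than their spread.

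Within the FOS family, FOSL1 made up 84.5%, 90.3% and 92.9% of the length-scaled RNA in WT and 95.8%, 93.0% and 94.8% in KD. The family's RNA in this line was thus nearly all FOSL1 in every library. The summed family level was 170, 624 and 684 in WT and 830, 906 and 870 in KD, the lowest again in WT replicate 1. Within the JUN family, JUND held 45.8% ± 10.3 in WT and 35.2% ± 6.9 in KD (SD, n = 3 each). JUNB held 36.5% ± 7.1 and 44.6% ± 4.8, and JUN 17.7% ± 3.2 and 20.1% ± 2.3. The JUN family shares overlapped between the groups.

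**Figure D3:**
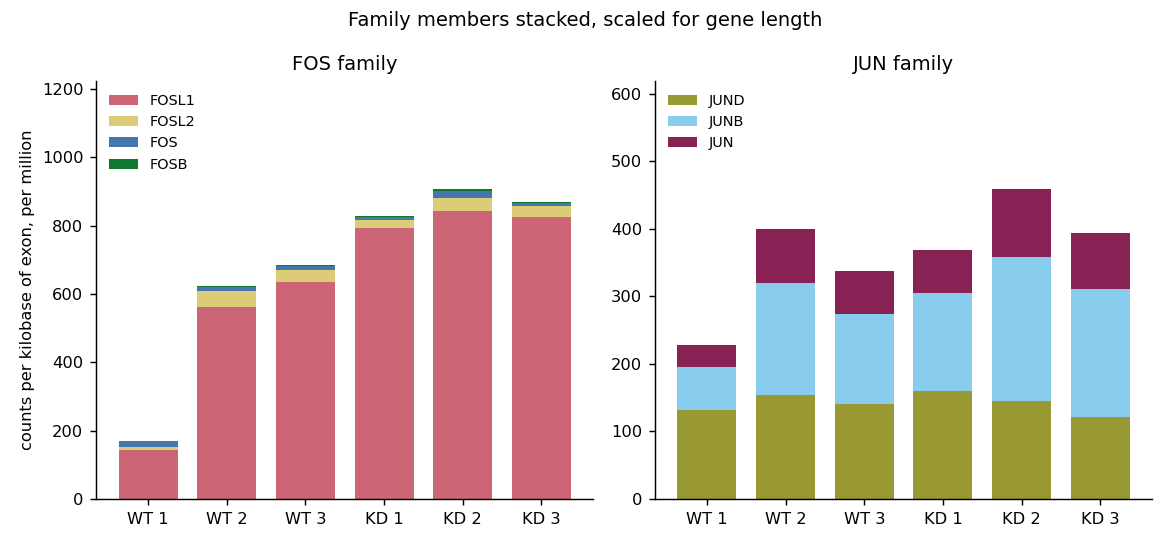
Length-scaled RNA of the FOS family (left) and the JUN family (right), stacked by gene for each library, on the scale of TPM, counts per kilobase of exon with each library brought to the same sum. FOSL1 fills most of the FOS bar in all 6 libraries, and the FOS bar of WT replicate 1 (170) is the shortest.

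Other leucine zipper factors, many of which can pair with FOS or JUN, were 14 in number, all above the floor. BATF2 and MAF rose and 0 fell by edgeR (also 0 by DESeq2 and by limma-voom, and 0 at an unadjusted p under 0.05). Among all tested genes 1.75% were called higher. BATF2, an interferon-induced relative, stood at 4.10, 3.97 and 6.55 CPM in WT and 74.7, 68.3 and 100.2 CPM in KD. Its log2 fold change was 4.06 ± 0.29 (SE; adjusted p = 8.8e-05, edgeR). MAF stood at 4.81, 5.48 and 9.07 CPM in WT and 24.5, 26.8 and 20.01 CPM in KD, a log2 fold change of 1.88 ± 0.32 (SE; adjusted p = 0.0161, edgeR). Neither gene overlapped between the groups. A total of 4 were called with the pairs taken into account, the others being the small MAF proteins MAFG (adjusted p = 0.0298) and MAFK (adjusted p = 0.00439), which lack an activation domain. Leaving out WT replicate 2, KD replicate 2 or KD replicate 3 left 1 called, and leaving out both libraries numbered 1 gave 5. Others had log2 fold changes of 0.01 (NFE2L2), 0.10 (ATF2), 0.10 (ATF7), 0.23 (JDP2), 0.24 (BATF3), 0.32 (BATF), 0.35 (MAFF), 0.47 (ATF4) and 0.90 (ATF3), none of them called.

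Of 30 other immediate early genes tested, KLF4, CSRNP1 and BTG1 rose and 0 fell by edgeR (also 0 by DESeq2, by limma-voom and at an unadjusted p under 0.05). KLF4, a zinc finger factor, stood at 10.5, 18.5 and 14.9 CPM in WT and 35.9, 62.2 and 40.8 CPM in KD. Its log2 fold change was 1.66 ± 0.30 (SE; adjusted p = 0.0209, edgeR). CSRNP1 stood at 6.63, 32.1 and 30.4 CPM in WT and 97.6, 113 and 110 CPM in KD (log2 fold change 2.22, adjusted p = 0.0451). BTG1, an antiproliferative gene, had a log2 fold change of 0.96 (adjusted p = 0.0488). For all 3 the lowest KD library was above the highest WT library, as for 10 of the 30. Among all tested genes 11.8% were so ordered and 1.75% were called higher. By DESeq2 6 of the 30 rose and by limma-voom 3. The list's median log2 fold change was 0.40, and 21 of 30 were above 0. The number called was 7 with the pairs taken into account, and 0 without WT replicate 3, KD replicate 2 or KD replicate 3.

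The kinases and factors upstream of these genes (ERK, JNK and p38 pathway members, SRF, ELK and CREB factors) showed 0 calls among 23 tested by edgeR, DESeq2 or limma-voom, and 1 had an unadjusted p under 0.05. Their median log2 fold change was 0.04. MAP2K2, an ERK pathway kinase, ran at 170, 214 and 212 CPM in WT and 174, 215 and 194 CPM in KD, and RPS6KA1, an ERK-activated kinase, at 116, 236 and 244 CPM and at 176, 222 and 218 CPM. RNA levels of kinases do not measure their activity. With the pairs taken into account 1 was called, MAP2K1 (log2 fold change 0.68 in that fit, adjusted p = 0.0190), named after its values were seen.

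Among 24 AP-1 target genes tested, 4 rose and 0 fell by edgeR, beside 1.75% and 0.839% of all tested genes. By DESeq2 6 rose and by limma-voom 5. The falls were 0 by either, and 1 gene had an unadjusted p under 0.05 on that side. The list was chosen with earlier results of these data known, so its count and median are description only. The growth factor gene AREG had 2, 0 and 0.09 expected counts in WT and 260, 300 and 291 in KD (adjusted p = 0.00123), so its WT libraries were all under the floor of 3 counts. IL11, a cytokine gene, stood at 1.14, 0.738 and 1.63 CPM in WT and 16.1, 23.1 and 21.4 CPM in KD (log2 fold change 4.11 ± 0.41, SE; adjusted p = 0.000741, edgeR). HBEGF, another EGF receptor ligand, stood at 8.87, 10.7 and 15.1 CPM in WT and 38.4, 43.0 and 35.1 CPM in KD. Its log2 fold change was 1.75 ± 0.26 (SE; adjusted p = 0.00856, edgeR). VEGFA, the angiogenic factor, was also called, at 1.27 (adjusted p = 0.0167), and is named after its values were seen. The median of the list was 0.85. The paired fit gave 12 higher and 3 lower, so the list was not uniform in direction. Leaving out WT replicate 2 or KD replicate 2 left 2 called, and leaving out both libraries numbered 1 gave 9.

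MYC's binding partners and antagonists gave 1 call among 13 tested, a fall. MXD3, a MYC antagonist, stood at 18.8, 16.1 and 28.1 CPM in WT and 2.75, 7.24 and 6.58 CPM in KD (log2 fold change -1.93 ± 0.41, SE; adjusted p = 0.0440, edgeR). The call was lost in every case in which WT replicate 2, WT replicate 3 or any 1 KD library was left out. Of the partners 0 rose by edgeR, DESeq2 or limma-voom, and 0 had an unadjusted p under 0.05 on that side. By DESeq2 2 fell and by limma-voom 1. With the pairs taken into account 2 fell, MXD3 (adjusted p = 0.00442, edgeR) and MXD4 (adjusted p = 0.0208). MXD4, named after its values were seen, had every KD library below every WT library. Its log2 fold change without the pairs was -0.79 (adjusted p = 0.0920, edgeR), so it was not called. Of 30 MYC target genes 0 were called in either direction by edgeR (1 fell by DESeq2 and 1 by limma-voom), and 1 had an unadjusted p under 0.05 upwards and 4 downwards. Their median was -0.01. LDHA, the lactate dehydrogenase gene, ran at 1623, 3209 and 3547 CPM in WT and 1341, 2037 and 2194 CPM in KD, and PTMA at 813, 1242 and 1617 CPM and at 661, 698 and 870 CPM. In the paired fit 3 MYC target genes fell, LDHA (adjusted p = 0.0339), PTMA (adjusted p = 0.0217) and TFRC (adjusted p = 0.00249). TFRC, named after its values were seen, had every KD library below every WT library. Without the pairs its log2 fold change was -1.08 (adjusted p = 0.0524, edgeR), so it was not called.

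Immediate early genes also respond to handling, so 10 heat shock and handling genes were counted. None was called by edgeR, DESeq2 or limma-voom (0 upwards and 1 downwards at an unadjusted p under 0.05). Their summed level ran from 2162 to 3012 CPM in WT and from 2571 to 2945 CPM in KD. HSPA8 was at 491, 1021 and 1139 CPM in WT and 964, 986 and 1235 CPM in KD. HSP90AA1 was at 866, 566 and 508 CPM in WT and 646, 373 and 405 CPM in KD. WT replicate 1 was thus lowest for HSPA8 and highest for HSP90AA1. With the pairs taken into account 1 was called, HSPA1A (log2 fold change 0.63 in that fit, adjusted p = 0.0430). The part of handling in the EGR1 difference was not tested.

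Of the 10 melanocyte markers 1 fell, S100B, at 145, 106 and 101 CPM in WT and 47.3, 49.5 and 40.8 CPM in KD (log2 fold change -1.35 ± 0.21, SE; adjusted p = 0.00949, edgeR). With the pairs taken into account 6 fell and 1 rose, and the list's median was -0.84 without them. The part of this shift in the EGR1 difference was not tested. Markers of other cell types were low: 4 keratinocyte markers summed to 0.564 to 4.98 CPM in WT and 0.857 to 1.29 CPM in KD, and 4 leukocyte markers to 0.931 to 1.83 CPM and 0 to 1.53 CPM, with CD3E at 0. The 4 fibroblast markers summed to 3.55 to 86.8 CPM in WT and 1.40 to 20.7 CPM in KD, nearly all of it COL1A1, and 2 endothelial markers to 1.75 to 3.69 CPM and 2.08 to 5.45 CPM.

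**Figure D4:**
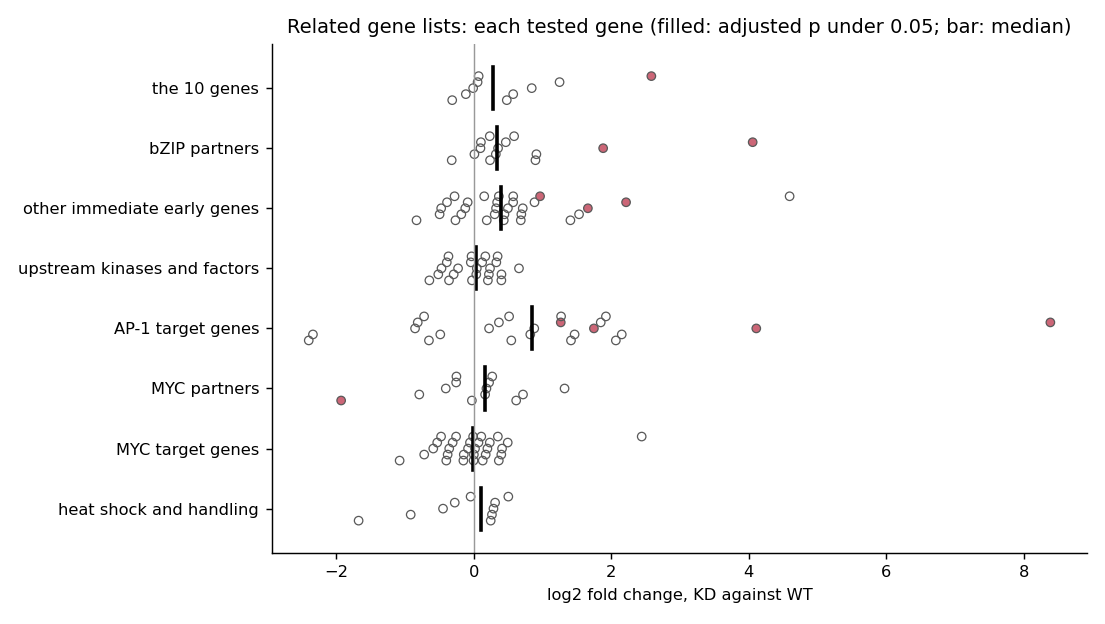
Log2 fold change of KD against WT for every tested gene of the 10 and of the related lists, with filled points for adjusted p under 0.05 and black bars at the list medians. The medians run from -0.01 (MYC target genes) to 0.85 (AP-1 target genes), for lists chosen with earlier results of these data known. The point farthest to the right is AREG, whose WT libraries are under the floor. Its position therefore depends on the fit's prior count.

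Profiles over the 6 libraries were compared after centring each gene's log2(CPM + 0.5), among 13535 genes with a mean of at least 1 CPM. The genes most like EGR1 were SPRY1, RGS16 and FUT1, with a mean absolute difference of 0.31, 0.32 and 0.33 on the log2 scale. SPRY1, an inhibitor of growth factor signalling, stood at 3.20, 7.28 and 4.59 CPM in WT and 17.9, 34.5 and 22.7 CPM in KD, with replicate 2 the highest of each group as in EGR1. Those most like FOSB were PLEKHN1, SERTAD1 and FAM3C2 (0.13, 0.14 and 0.15), and those most like FOSL1 were OSBP2, TNFRSF12A and PSD4 (0.18, 0.20 and 0.21). TNFRSF12A, a receptor for the cytokine TWEAK, stood at 111, 256 and 407 CPM in WT and 516, 561 and 637 CPM in KD, and shares with FOSL1 a low WT replicate 1. Likeness of this kind is a description over 6 points.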

How the data were processed

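RNA-seq libraries of M14 cells were analysed (3 WT, 3 KD, grouped by the labels). The values are the authors' expected counts, from STAR on hg19 followed by RSEM, which splits reads matching several genes, and were deposited unscaled and unfiltered. Between 9.63% and 16.7% of the values were not whole. The study calls its replicates biologically independent. Other assays of the study were not analysed here.

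Counts were rounded, filtered with filterByExpr (15605 genes), scaled by TMM and tested with edgeR 4.0.16 (R 4.3.3) by its quasi-likelihood test. All tested genes entered the Benjamini-Hochberg adjustment, with calls at 0.05. CPM values are TMM-scaled. A gene's exon length, for values per length, was the union of its exons in a GENCODE annotation on GRCh37, and 99.27% of counts had one. No block was used, as the study's methods name no pairs for the RNA-seq, although it used paired tests for other measurements of this design. Libraries of the same number deviated together from their group means (r = 0.607, 0.479 and 0.380 over 8932 genes). WT replicate 2 with KD replicate 3 gave r = 0.305, and WT replicate 3 with KD replicate 2 gave 0.198. Pairs of a library numbered 1 with a library numbered 2 or 3 ran from -0.5555 to -0.3945. Replicates 2 and 3 were thus less clearly told apart than replicate 1. The numbers were taken to pair the libraries, and each result was also fitted with a block.

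Alternatives were DESeq2 1.42.0, limma-voom (limma 3.58.1), upper-quartile and total-count scaling, no filter, at least 10 counts in every library, unrounded counts, stricter calls (0.01, or a log2 fold change of 1 or more in size), and omission of each library or of both numbered 1. The methods were tested on simulated data. The genes and lists were chosen with earlier results of these data known. Named are the 10 genes, STAG2, in each list the 3 called genes with the smallest p per direction (or the 2 with the highest mean CPM), the leucine zipper partners above the floor, and the 3 profiles most like each of the 3 of the 10 genes with the smallest p. Others were named after their values were seen. Some results are left out of the text.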

Additional observations from a re-analysis of the deposited data

How the results depend on the processing

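Among the 10 genes, the replicate block changed no call: 1 was called higher (EGR1, log2 fold change 2.73, adjusted p = 4.1e-05) and 0 lower. With no filter on low counts 2 were called (FOSL1 at 0.84 as well), and at an adjusted p under 0.01 by edgeR 0 were. Leaving out libraries gave 0 to 1. The EGR1 log2 fold change then ran from 2.29 to 3.28, FOS from -0.62 to 0.18, FOSL2 from -0.36 to 0.40, JUND from -0.15 to 0.08, IER3 from -0.64 to 0.08, MYC from -0.04 to 0.34, JUN from 0.17 to 0.72, JUNB from 0.26 to 0.80, FOSL1 from 0.41 to 1.27, FOSB from 0.89 to 1.68 and STAG2 from -2.63 to -1.68. FOS was above 0 without KD replicate 1 (0.11), KD replicate 3 (0.06) or both numbered 1. FOSL2 was below 0 without WT replicate 1, KD replicate 2 (-0.16) or both numbered 1 (-0.15). IER3 was above 0 without WT replicate 3 (0.079), and MYC below 0 without WT replicate 2 (-0.037) or 3 (-0.02). JUND was above 0 without WT replicate 2 (0.01), WT replicate 3 (0.04) or KD replicate 3 (0.080). Scaled by total counts alone, JUND was at 0.0013, and STAG2, at -2.12, had an adjusted p of 0.0591. STAG2 was also not called without WT replicate 2 (adjusted p = 0.0757), WT replicate 3 (0.0652), KD replicate 2 (0.168) or KD replicate 3 (0.152). The cause was not tested for any of these.

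Over all genes 273 were called higher and 131 lower. The counts were 547 and 432 by DESeq2, 573 and 530 with no filter, 796 and 690 with the block, and 116 and 21 at an adjusted p under 0.01. Leaving out libraries gave 106 (without KD replicate 3) to 461 (without both numbered 1) higher and 15 to 296 lower for the same omissions. Of the calls 67.57% were higher, against 55.87% by DESeq2, 51.95% with no filter and 53.57% with the block. The leucine zipper count ran from 1 to 5, and with no filter 11 AP-1 target genes rose and 3 fell. The FOSB share of its family was 0.39% in WT and 0.49% in KD, and 0.50% and 0.64% by the longest annotated transcript.

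Depth is lowest for FOSB, which rests on 37 to 239 counts. The intervals of FOSB, FOSL1, FOSL2, JUN, JUNB and IER3 do not exclude a 2-fold change, while those of FOS, JUND and MYC do. The SE of FOSL1 was 0.45 with WT replicate 1 and 0.19 without it. Doxycycline, the knockdown and the single line are confounded. The EGR1 call was lost without WT replicate 3 or KD replicate 2, at log2 fold changes of 2.36 and 2.31. Over all genes, those called higher went from 273 to 131 and 116 in these fits. They were 106 without KD replicate 3, where EGR1 stayed called.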

Other observations

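The genes around EGR1 were chosen after its values were seen. Within 500 kb on either side, 13 other genes were tested, with a median log2 fold change of 0.05 and 7 above 0. KIF20A, a mitotic kinesin gene 277.8 kb before EGR1, fell by 2.56 on the log2 scale (adjusted p = 0.0011, edgeR), and SIL1, a chaperone cofactor gene 477.4 kb after it, rose by 1.29 (adjusted p = 0.00687). The nearest tested genes, REEP2 at 18.5 kb, KDM3B at 28.5 kb and ETF1 at 36.8 kb, were not called. With the replicate block 4 of the 13 were called, CTNNA1 and HSPA9 in addition.

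A list of 10 genes that ERK signalling induces, its phosphatases and Sprouty proteins among them, was also chosen after values were seen. By edgeR 0 were called in either direction (0 by DESeq2 and by limma-voom), and 3 had an unadjusted p under 0.05 upwards and 0 downwards. The median log2 fold change was 0.14. DUSP6, an ERK phosphatase, stood at 65.7, 53.9 and 56.7 CPM in WT and 76.2, 107 and 95.2 CPM in KD (log2 fold change 0.66, adjusted p = 0.142). With the block 3 rose, DUSP5, SPRY4 and DUSP6. The Sprouty gene SPRY1 is not in this list and was called higher (log2 fold change 2.31, adjusted p = 0.0150, edgeR).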
